A study of Caenorhabditis elegans with 3 samples.

Results

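The genes described here are the metallothioneins mtl-1 and mtl-2 and the cadmium-responsive genes cdr-1 to cdr-7 of the nematode Caenorhabditis elegans. They were chosen by name, and a gene counted as measured when at least 1 probe set of the array carried its symbol and no other in the platform annotation. Of the 9 genes, 7 were measured, by 9 probe sets, among 17118 genes measured in all, which were read by 20766 of the 22625 probe sets. Both metallothioneins and 5 of the 7 cdr genes had a probe set. No probe set was assigned to cdr-5 or cdr-7 alone, so neither has a value here. The worms were whole, wild-type hermaphrodite young adults, 3 days old, from synchronised cultures, and each condition has 1 Affymetrix array. One set of worms was exposed to GO, one to rGO and one served as the control. All 3 sets were kept for 24 h at 20 °C in a salt medium without food, so the control worms were unfed as well. The labels give the abbreviations alone, and the study is known to concern graphene oxide and reduced graphene oxide. The labels do not state the dose. A value "with GO" or "with rGO" is one from the array of that exposure.

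Metallothioneins are very small proteins rich in cysteine, whose thiol groups bind zinc, copper and cadmium. In C. elegans both genes are known to be induced by cadmium in the intestine. The mtl-1 gene is in addition expressed in the pharynx and is a known target of DAF-16, the FOXO transcription factor that acts below the insulin receptor. The cdr genes encode related proteins with a predicted thioredoxin-like fold that resembles glutathione S-transferases. The founding gene, cdr-1, encodes a protein of intestinal lysosomes and is strongly induced by cadmium. The other cdr genes differ in how they respond to metals, and the family has been linked to the fluid balance of the worm. In the literature cdr-5 is also known as hrg-2, a heme-responsive gene.

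With 1 array per condition there is no spread between replicates, and no p-value is given. Values are the deposited log2 expression values, and 1 log2 unit is a 2-fold difference. Values below 6.24, the highest of 8 control probe sets without an expected target, are treated as not above background. A gene entered a comparison when the brighter of its arrays reached 6.79, the median of all gene values, and it was counted when the arrays differed by at least 1 log2 unit. The median difference over all genes was 0.00 in each comparison with the control array. The bacterial poly-A controls, which are added to the RNA, did not follow this. Their 24 probe sets had a median difference of -1.55 for GO minus control and -0.98 for rGO minus control. The 18 hybridisation control probe sets had medians of -0.62 and -0.93 in the same order. Shifting the arrays to equal poly-A controls would move every gene upward by those amounts, so each difference below is relative to the median gene and the part of the control probe sets in it was not tested. The gap between the 3′ and 5′ probe sets of worm transcripts also varied. For actin it was 3.02 with GO and 1.31 with rGO, against 1.87 in the control, and for Gapdh 1.78 with GO and 0.72 with rGO, against 1.39. For catalase it was 4.72 with GO and 3.06 with rGO, against 4.84, and for ubiquitin 4.85 with GO and 4.17 with rGO, against 5.02. The gap was thus narrower with rGO for all 4 transcripts, whereas with GO it was wider for actin and Gapdh and narrower for the other two. With 1 array per condition, RNA quality and labelling cannot be told apart from the exposure.

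The 2 metallothioneins differed from each other. The mtl-1 level was 10.97 on the array of GO-exposed worms and 11.05 on that of rGO-exposed worms, against 7.86 on the control array. Both exposed arrays were thus high and close together, and the control array was low, although its value was still above background. The mtl-1 difference was 3.10 for GO minus control, an 8.58-fold higher value, and 3.19 for rGO minus control, a 9.11-fold higher value. One probe set reads mtl-1, so no second measurement of this gene exists on these arrays.

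The other metallothionein, mtl-2, differed by less than 2-fold in the deposited values. Its mean level was 11.62 with GO and 11.26 with rGO, against 11.85 in the control. It was bright on all 3 arrays, and the control array was the highest. The mtl-2 difference of -0.24 for GO minus control was a 1.18-fold lower value, and that of -0.59 for rGO minus control was a 1.51-fold lower value. The 3 probe sets of mtl-2 ran the same way. They lay between -0.31 and -0.18 for GO minus control and between -0.73 and -0.48 for rGO minus control. By the maker's naming all 3 can share probes with other transcripts or with each other, so they are not separate measurements. With the arrays shifted to equal poly-A controls, mtl-2 turned to 1.32 with GO, over 2-fold higher, and to 0.39 with rGO. With equal hybridisation controls it was at 0.38 and 0.34.

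**Figure D1:**
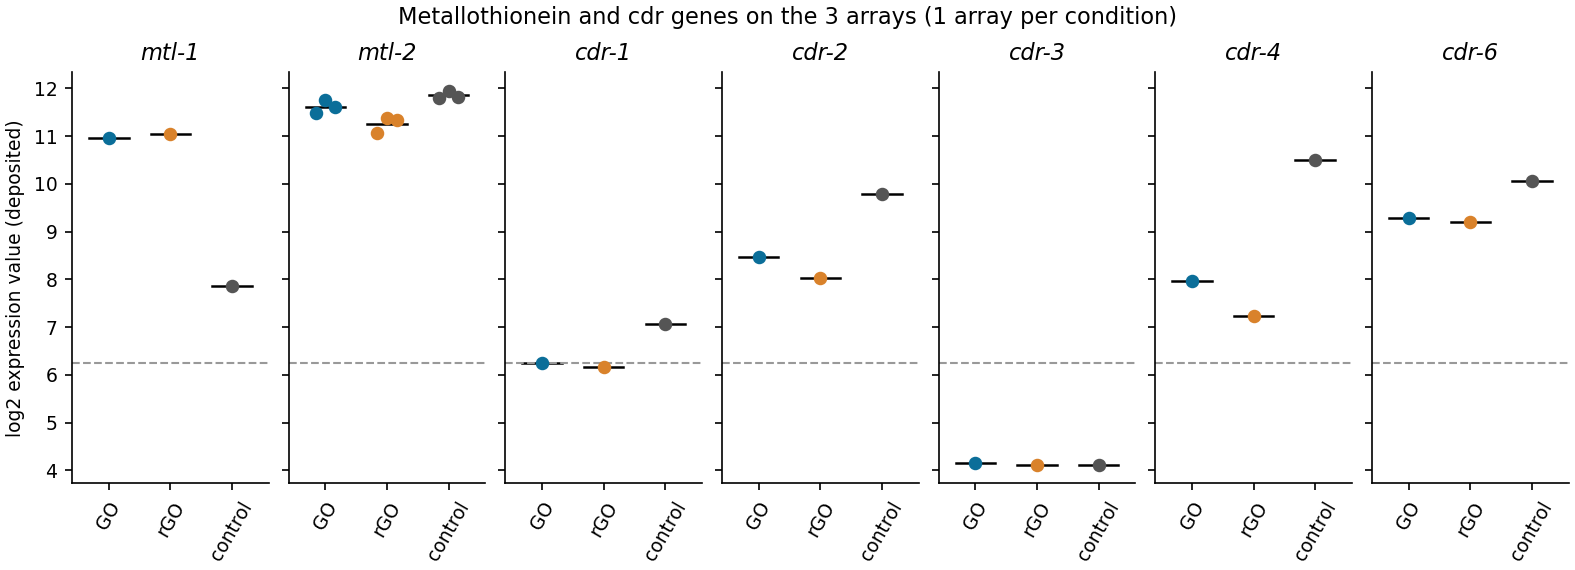
Deposited log2 expression values (vertical axis) of the 7 measured genes on the GO, rGO and control arrays, with 1 point per probe set, a black bar for the mean of the probe sets and a dashed line at 6.24, the background limit. Within its own panel mtl-1 was higher on both exposed arrays than on the control array, whereas mtl-2, cdr-1, cdr-2, cdr-4 and cdr-6 were each highest on the control array, and cdr-3 lay below the dashed line on all 3 arrays.

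Relative to the median gene, cdr-2, cdr-4 and cdr-6, which were above background on all 3 arrays, and cdr-1, which was not above background with rGO, had lower values on both exposed arrays than on the control array. The difference of cdr-4 was the largest. These directions rest in part on the scaling, as given beside each gene. The cdr-4 gene, a family member known to be inducible by cadmium, had a level of 7.96 with GO and 7.24 with rGO, against 10.49 in the control. The rGO array was the lowest, the GO array lay a little above it, and all 3 were above background. The cdr-4 difference was -2.53 for GO minus control, a 5.78-fold lower value, and -3.25 for rGO minus control, a 9.52-fold lower value. After the poly-A shift cdr-4 was at -0.98 with GO, under 2-fold, and at -2.27 with rGO. After the hybridisation shift it was at -1.91 and -2.32, still over 2-fold lower. The single cdr-4 probe set carries the suffix for probes shared between transcripts, so other transcripts could contribute to it.

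The next in size was cdr-2. It had a level of 8.47 with GO and 8.02 with rGO, against 9.78 in the control. The order of the arrays was that of cdr-4, over a smaller range. The cdr-2 difference was -1.32 for GO minus control, a 2.49-fold lower value, and -1.76 for rGO minus control, a 3.38-fold lower value. No shift by control probe sets left cdr-2 over 2-fold lower. With the poly-A shift it was at 0.24 with GO, on the higher side, and at -0.78 with rGO, and with the hybridisation shift it was at -0.70 and -0.83.

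Smaller differences, under 2-fold, were seen for cdr-6 and cdr-1. The cdr-6 level was 9.28 with GO and 9.20 with rGO, against 10.06 in the control. Its differences of -0.78 for GO and -0.86 for rGO were nearly equal. The cdr-1 level was 6.26 with GO and 6.17 with rGO, against 7.06 in the control. On the exposed arrays cdr-1, the gene of the intestinal lysosome protein, was thus at the background limit, and its differences were -0.80 for GO and -0.89 for rGO. In the rGO comparison the cdr-1 value is a bound, at least 1.76-fold lower. After the poly-A shift both genes turned to the higher side in both comparisons, and after the hybridisation shift they did so for rGO. The remaining gene, cdr-3, had a level of 4.16 with GO and 4.12 with rGO, against 4.12 in the control. All 3 values of cdr-3 were below background, so it has no fold.

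The first comparison asked how these genes differed in worms exposed to GO. Of the 7 measured genes 6 entered. One, mtl-1, was at least 2-fold higher, where 8.43% of all 9303 genes that entered were. The genes at least 2-fold lower were 2, cdr-4 and cdr-2, where 9.76% of all genes were, and 3 were under 2-fold. The median over the 6 genes was -0.79, against 0.03 over all genes that entered, and the median over all 7 measured genes was -0.78. With the poly-A shift the calls were 2 higher, mtl-1 and mtl-2, and 0 lower, and the median was 0.76. With the hybridisation shift 1 was higher and 1, cdr-4, lower, and the median was -0.17. Each shift moves all genes by the same amount, so the members keep their place relative to the median gene. The shares and the median of 0.03 over all genes are for the unshifted values and do not apply to the shifted ones. Ranked by the signed difference, mtl-1 was number 41 from the highest of the 9303 genes and cdr-4 was number 251 from the lowest. A larger absolute difference than that of mtl-1 was found in 1.90% of the genes, and one larger than that of mtl-2 in 59.2%. Below 0 were 5 of the 6 genes and 38.8% of all genes that entered. Counts this small describe 6 genes and nothing beyond them.

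For rGO the question was the same, and the comparison used the same control array, so its values are not independent of the first. Again 6 genes entered, 1 was at least 2-fold higher (7.99% of all 9097 genes) and 2 were at least 2-fold lower (9.88%), and they were the same 3 genes as with GO. The median over the 6 genes was -0.87, against 0.03 over all genes that entered. Either shift left 1 gene, cdr-4, lower, and the median was 0.11 with the poly-A shift and 0.059 with the hybridisation shift. All genes move by the same amount in each shift, so the unshifted 0.03 and shares over all genes do not apply there. Relative to the median gene the members stay where they were. Here mtl-1 was number 24 from the highest and cdr-4 number 54 from the lowest. The difference of cdr-2 was number 397 from the lowest with rGO and number 674 with GO. A single unusual value on the control array would move both comparisons alike, and no second control array was used here to measure that.

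**Figure D2:**
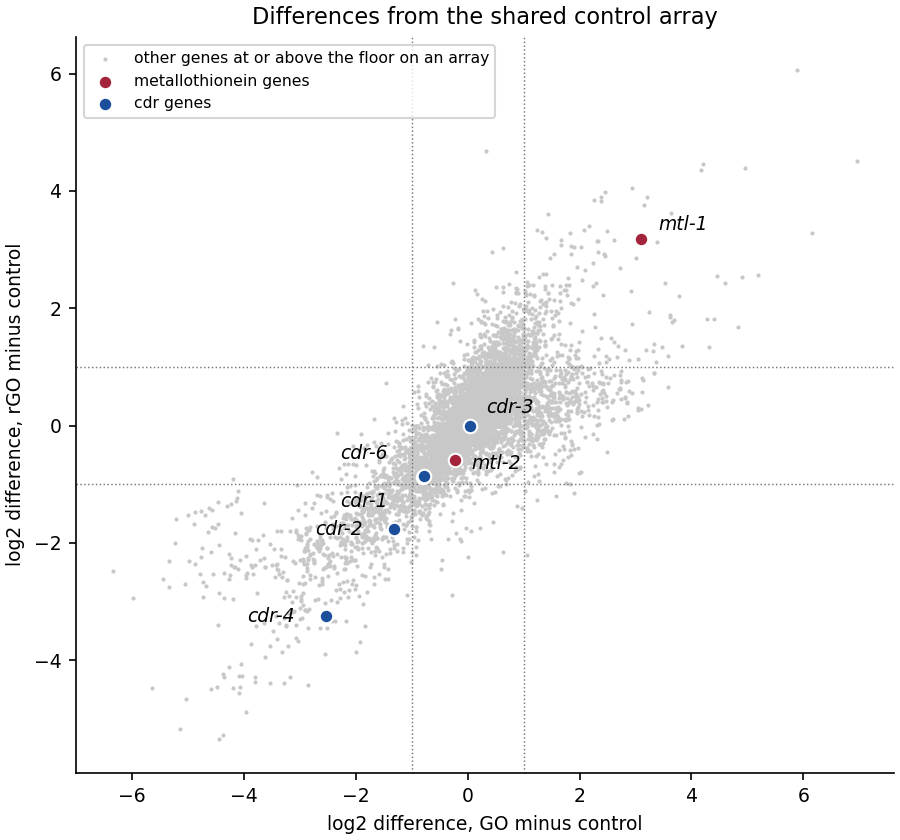
Log2 difference of each gene for GO minus control (horizontal axis) and rGO minus control (vertical axis), for the 7 measured genes (coloured) and for the other genes that reached 6.79 on at least 1 array (grey), with dotted lines at a difference of 1 in either direction. Both axes share the control array, which by itself spreads points along the diagonal; mtl-1 lies at 3.10 and 3.19, cdr-4 at -2.53 and -3.25, and the points of cdr-1 and cdr-6 overlap.

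The third comparison set GO directly against rGO and does not use the control array. None of the 5 genes that entered was at least 2-fold different, where 5.59% of all 8978 genes were at least 2-fold higher on the GO array and 3.73% lower, 9.32% in either direction. The largest difference was that of cdr-4, at 0.72 for GO minus rGO or 1.65-fold. Next were cdr-2 at 0.44 and mtl-2 at 0.36, which is also the median of the 5 genes, while mtl-1 was at -0.09 and cdr-6 at 0.07. The median SD between probe sets of 1 gene was 0.26 for GO minus rGO, over 2981 genes with more than 1 probe set. The values of mtl-1 and cdr-6 lay within that spread, which describes probe sets and not worms. An absolute difference larger than that of cdr-4 was found in 15.6% of all genes that entered. With the poly-A shift cdr-4 (1.29) and cdr-2 (1.02) became at least 2-fold higher with GO than with rGO. That shift moves all genes alike, so the shares above do not apply to it. It was taken from each exposed array's median poly-A difference to the control array, so the shifted values do use that array. The median poly-A difference taken directly for GO minus rGO was -0.48, a smaller shift, and the cdr-2 call rests on the route through the control. The cdr-1 and cdr-3 genes did not reach 6.79 on either exposed array.

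All measured genes of the group lie on chromosome V in the RefSeq annotation of assembly WBcel235. The 2 metallothioneins and cdr-1 stand apart from the other members there, whereas the others form a run of 6 protein-coding genes, 5 of them named cdr in that annotation and 1 named hrg-2. In chromosome order this run is cdr-4, hrg-2, cdr-7, cdr-6, cdr-2 and cdr-3, of which hrg-2 and cdr-7 had no probe set of their own. The differences did not change evenly along the run. For GO minus control, cdr-4 at one end was at -2.53, cdr-6 at -0.78, cdr-2 at -1.32, and cdr-3 at the other end was not above background. For rGO minus control the same 3 genes were at -3.25, -0.86 and -1.76.

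**Figure D3:**
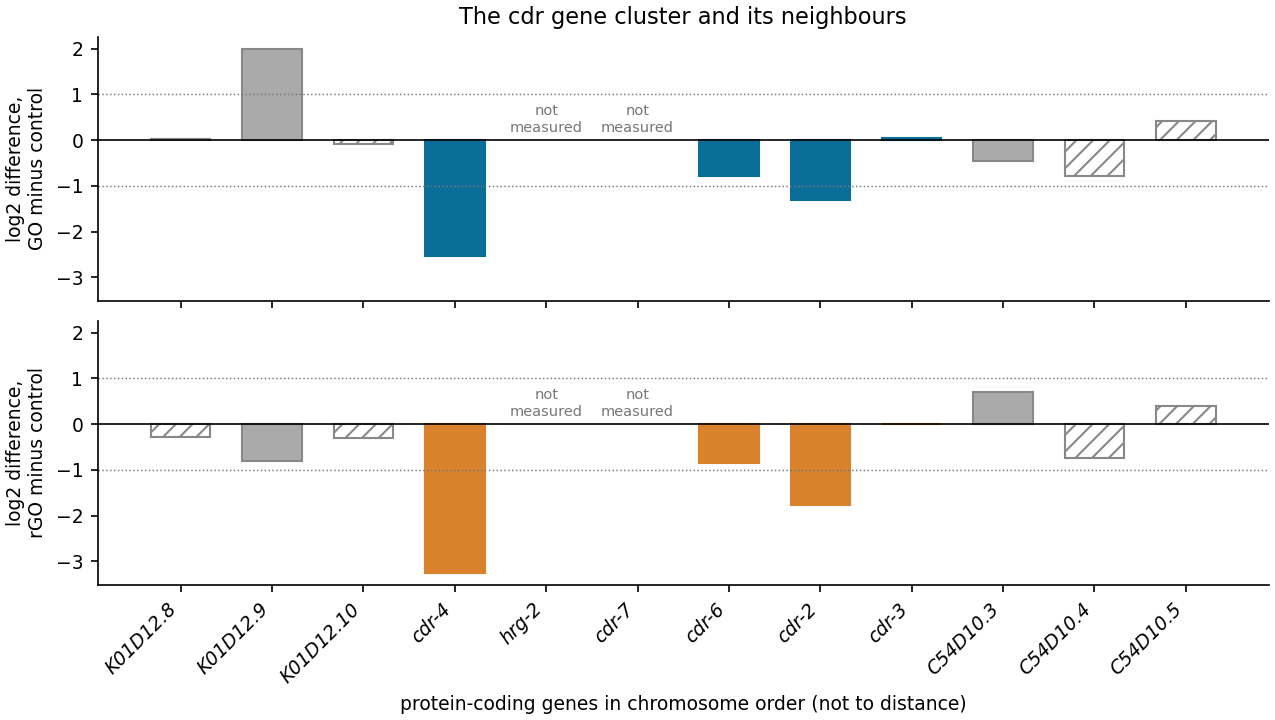
Log2 difference for GO minus control (top) and rGO minus control (bottom) of the 6 protein-coding genes from cdr-4 to cdr-3 (coloured) and the 3 genes on either side (grey), in chromosome order and not to distance; hatched bars are genes that did not reach 6.79 on any array. The bars of cdr-4, cdr-6 and cdr-2 point downward in both panels, and cdr-3 is next to 0.

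The genes with the closest pattern to a member were taken by the Euclidean distance between pairs of differences, GO minus control and rGO minus control, over the 3 arrays and 9448 candidate genes. Closest to mtl-1 were R07C12.1 at a distance of 0.29, spp-31, a saposin-like protein gene, at 0.34, and pud-4 at 0.49. The control values of R07C12.1 (4.03) and pud-4 (4.71) were below background, so their distances and places are not exact. The spp-31 gene was above background on every array, with 10.45 with GO and 10.31 with rGO, against 7.45 in the control. Closest to cdr-4 were pho-13, of the acid phosphatase family, at 0.04, K09C4.5 at 0.07 and ptps-1, a gene of tetrahydrobiopterin synthesis, at 0.13. The pho-13 level was 5.95 with GO and 5.26 with rGO, against 8.47 in the control, with both exposed values below background. Those of K09C4.5 were also below it, as was the rGO value of ptps-1, so none of the 3 distances from cdr-4 is exact and their order has no meaning. Closest to cdr-2 were lbp-7, which encodes a lipid-binding protein, at 0.06, F54D5.4 at 0.06 and the galectin gene lec-10 at 0.07. The lec-10 level was 10.43 with GO and 9.88 with rGO, against 11.68 in the control. With 3 arrays few patterns are possible, so closeness in this plane is a description of these arrays.

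Genes that carry or bind metals without being metallothioneins were set beside the members. Over all genes that entered, 18.2% were at least 2-fold different with GO and 17.9% with rGO. Of 17 genes listed for metal transport and chelation 16 were measured and 15 entered both comparisons with the control. With GO 1 was higher and 1 lower (median 0.09), and with rGO 3 were higher and 1 lower (median 0.26), against 0.03 over all genes in both comparisons. On the higher side alone the share over all genes was 8.43% with GO and 7.99% with rGO. The GO counts are near the shares over all genes, whereas the 3 higher of 15 with rGO are above theirs. With so few genes and 1 array per condition, neither is read as a result about the list. The gene on the higher side with GO was gcs-1, which encodes the rate-limiting enzyme of glutathione synthesis, at 9.08 with GO and 9.28 with rGO, against 7.20 in the control. Its 2 probe sets were 1.12 apart in the GO difference. The lower gene was pgp-1, a P-glycoprotein gene, which was below background on both exposed arrays and at least 6.15-fold lower on each. With rGO the zinc transporter gene cdf-2 (1.21) and asna-1, whose product is related to arsenite-handling ATPases (1.03), were at least 2-fold higher as well. On the GO array they were at 0.68 and 0.65. Phytochelatins are the other cadmium-binding peptides of the worm, and their genes were under 2-fold on both arrays. The synthase gene pcs-1 was at 0.03 with GO and 0.26 with rGO, and the transporter gene hmt-1 was at 0.44 with GO and 0.87 with rGO.

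Other genes known to be induced by cadmium gave 6 genes that entered, of 10 listed and 7 measured. None of these 6 was at least 2-fold higher, where 8.43% of all genes were with GO and 7.99% with rGO, and 2 were lower in both comparisons, where 9.76% and 9.88% were. Their medians were -0.67 for GO and -0.75 for rGO, against 0.03 over all genes. So few genes do not set the list apart from that background. The heat shock gene hsp-70 had 6.15 with GO and 7.74 with rGO, against 9.19 in the control. It was at least 7.70-fold lower with GO and 2.72-fold lower with rGO. The glutathione S-transferase gene gst-4 had 6.81 with GO and 6.53 with rGO, against 9.49 in the control. The small heat shock gene hsp-16.2 was at -0.97 with GO and -0.70 with rGO, and hsp-16.41 at -0.21 and -0.72. The gst-38 gene was at -0.38 with GO and -0.78 with rGO, and kreg-1 was at 0.27 and 0.42. The metal-induced gene numr-2 was listed at 4.35 on all 3 arrays, below background. The genes numr-1, hsp-16.1 and hsp-16.48 have probe sets only in common with other genes and were not used.

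**Figure D4:**
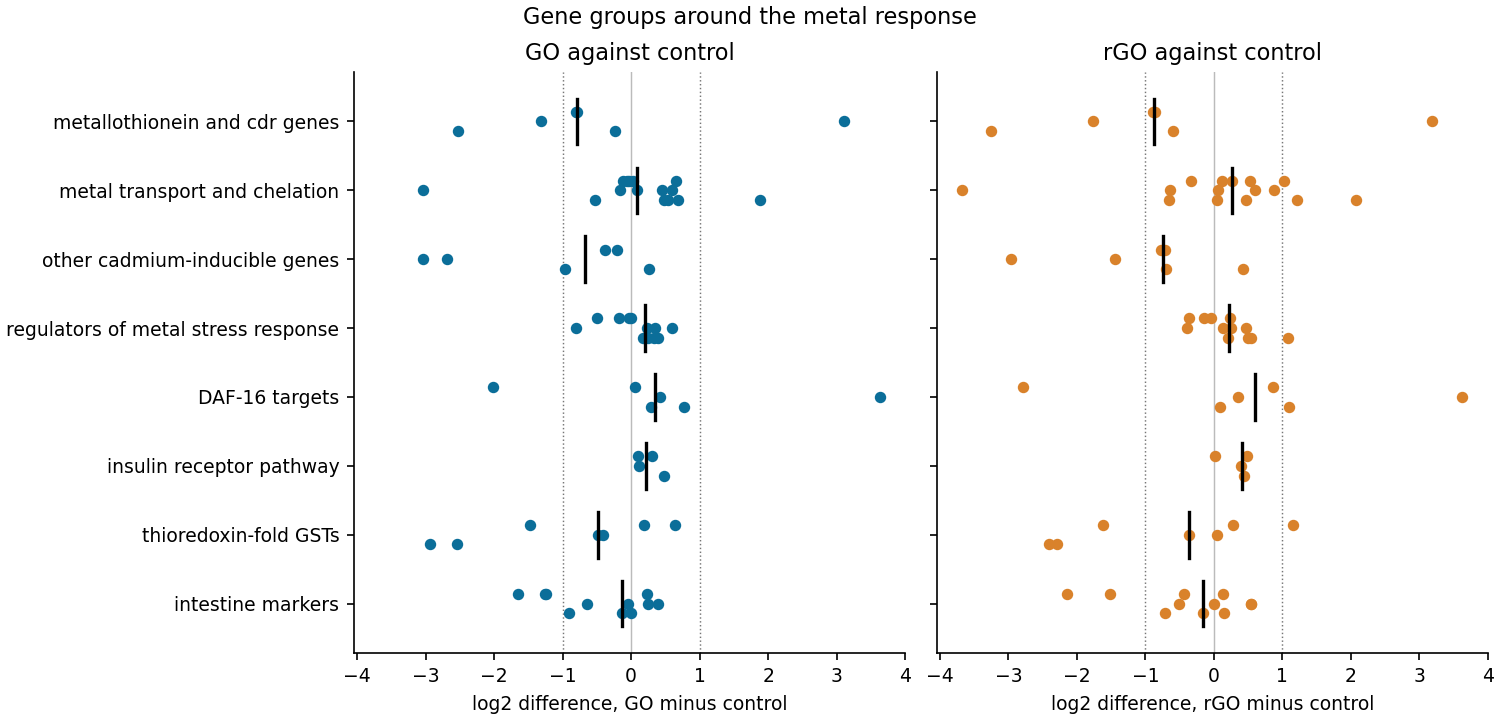
Log2 differences of single genes (points) for GO minus control (left) and rGO minus control (right), with the median of each group as a black bar and dotted lines at a difference of 1 in either direction, for genes that reached 6.79 on an array of the comparison. In the metallothionein and cdr group mtl-1 lies above 3 while the median is -0.79 with GO and -0.87 with rGO; gcs-1 is the highest point of the transport genes, and hsp-12.6 lies above 3.6 among the DAF-16 targets.

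Of 14 regulators listed for the metal stress response 13 were measured and 12 entered. Over all genes that entered, 18.2% were at least 2-fold different with GO and 17.9% with rGO. With GO none was at least 2-fold different (median 0.20). With rGO only mdt-15, a Mediator subunit gene, was, at 1.08 (median 0.22). The intestinal GATA factor gene elt-2, which is known to be needed for the metal response of intestinal genes such as cdr-1, was at 0.23 with GO and 0.13 with rGO. The stress factor gene skn-1 was at -0.80 with GO and -0.39 with rGO, and daf-16 at -0.50 and -0.36. The 3 probe sets of skn-1 were 1.68 apart for rGO. On the higher side mlk-1 was at 0.60 with GO and 0.47 with rGO, elt-7 at 0.39 and 0.54, and pmk-1 at 0.24 and 0.49. The zinc-sensing nuclear receptor gene hizr-1 was below background on all 3 arrays.

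Since mtl-1 is a DAF-16 target, other such targets were set beside it. Of 10 listed genes 9 were measured and 6 entered, with 1 higher and 1 lower with GO (median 0.36) and 2 higher and 1 lower with rGO (median 0.61). Over all genes 8.43% were higher and 9.76% lower with GO, and 7.99% higher and 9.88% lower with rGO, with a median of 0.03 in both. The small heat shock gene hsp-12.6 was the highest, with 10.31 with GO and 10.31 with rGO, against 6.68 in the control. The exposed arrays were again close together and high. The glutathione S-transferase gene gst-10 was lower by 4.07-fold with GO and 6.88-fold with rGO, and dod-6 was at 0.78 with GO and 1.09 with rGO. The superoxide dismutase gene sod-3, a commonly used DAF-16 reporter, did not enter. Its level was 5.27 with GO and 5.63 with rGO, against 6.63 in the control. Both exposed values of sod-3 were below background. The other targets that entered were under 2-fold, with dod-3 at 0.42 with GO and 0.35 with rGO, ctl-2 at 0.06 and 0.86, and sip-1 at 0.29 and 0.09. The part of DAF-16 in the mtl-1 values was not tested. All 4 of the 6 insulin receptor pathway genes that entered were under 2-fold in both comparisons, with medians of 0.21 for GO and 0.41 for rGO.

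Glutathione S-transferases share the thioredoxin-like fold of the CDR proteins. Of 12 such genes, all measured, 7 entered. With GO 3 were lower and none higher (median -0.49), and with rGO 3 were lower and 1 higher (median -0.37). Over all genes 9.76% were lower and 8.43% higher with GO, and 9.88% were lower and 7.99% higher with rGO. The median over all genes that entered was 0.03 in both. The lower ones were gst-5, at -2.94 with GO and -2.29 with rGO, gst-6, at -1.48 and -1.62, and the omega-class gene gsto-1, at least 3.47-fold lower on both. Another omega-class gene, gsto-3, was at 0.64 with GO and 1.15 with rGO.

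Because the arrays measured whole worms, fewer cells of a tissue and less RNA per cell cannot be told apart. All 11 intestinal markers entered, with levels above background on every array. Of these, 3 were at least 2-fold lower with GO and 2 with rGO, none was higher, and the medians were -0.13 and -0.15. Over all genes 9.76% were lower and 8.43% higher with GO, and 9.88% were lower and 7.99% higher with rGO. The median over all genes that entered was 0.03 in both. These shares also stand beside the counts of the other tissues below. The microvillar actin gene act-5 had 10.23 with GO and 9.75 with rGO, against 11.89 in the control. The peptide transporter gene pept-1 was at -1.24 with GO and -1.51 with rGO, and the esterase gene ges-1 at -1.26 with GO and -0.44 with rGO. Also lower, by less than 2-fold, were ifc-2 at -0.90 with GO and -0.71 with rGO, and spl-1 at -0.64 and -0.51. The 3 probe sets of ifc-2 were 1.61 apart for GO. Some intestinal genes were on the higher side. These were elt-7, a GATA factor gene, at 0.39 with GO and 0.54 with rGO, the aspartyl protease gene asp-1 at 0.25 and 0.54, and elt-2 at 0.23 and 0.13. The intestinal markers thus did not run one way, and their part in the cdr values was not tested. Of 6 pharynx markers 1, ceh-22, was counted as higher in both comparisons by the deposited values. Its control value of 5.55 was below background, so the folds are bounds, at least 3.10 with GO and at least 1.53 with rGO, and the second does not reach 2-fold. The pharynx medians were 0.28 with GO and 0.64 with rGO. The pharyngeal myosin gene myo-2 was at 0.32 with GO and 0.76 with rGO, myo-1 at 0.24 and 0.82, and pha-4 at 0.77 and 0.52. In the other direction, marg-1 was at -0.98 with GO and -0.25 with rGO. The part of the pharynx in the mtl-1 values was not tested. Of 6 hypodermis markers 3 were counted as lower and 1 as higher with GO (median -0.81) and 2 as lower with rGO (median -0.53). Both lower counts include bli-1, which was below background on both exposed arrays. Its fold is a bound, at least 1.83 in each comparison, which does not reach 2-fold. The 2 probe sets of bli-1 were 1.97 apart for GO and 1.38 apart for rGO. The collagen gene rol-6 was at -1.59 with GO and -1.58 with rGO. The adult collagen gene col-19 was at -4.20 with GO and -0.91 with rGO, and the collagen gene dpy-7 at 1.46 and -0.15. The 5 germline markers had medians of 0.07 with GO and 0.61 with rGO, with glp-1 higher in both. For body wall muscle, 4 of 5 markers entered, with medians of -0.14 with GO and 0.15 with rGO. Of these 1, the myosin gene unc-54, was at least 2-fold lower with GO, and none was with rGO. The unc-54 level was 10.64 with GO and 12.09 with rGO, against 11.96 in the control.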

How the data were processed

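Whole worms were measured on 3 Affymetrix arrays, 1 each for GO, rGO and control. Per the labels' protocols, 300 ng of total RNA was amplified with a whole-transcript kit and labelled with biotin. The authors deposited log2 expression values per probe set. The tools named, per the submitters' processing notes, are GCOS, the Affymetrix Expression Console and RMA, without versions. RMA equalises the distributions of arrays, so a general change in RNA per worm cannot be seen. It also gives ties, and on the GO and control arrays 20.9% of probe sets were equal. The number of arrays limits the precision.

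The platform annotation of 2016 gave 1 gene to 20766 probe sets, several to 887 and none to 895, beside 77 control probe sets. Symbols were updated by gene identifier from a RefSeq table of WBcel235, which held 20701 of the single-gene probe sets. Probe sets of 1 gene were averaged with Python 3.11.15 and pandas 2.3.3. Where the dimmer array was below 6.24, a fold was taken against 6.24 and called "at least". The members and lists were chosen with earlier results of these data known. Text names all members and the 3 genes closest to each member counted in a comparison with the control. From the lists it names genes among the 4 with the largest absolute difference per comparison, but not all of these. Others, among them pcs-1, hmt-1, elt-2, sod-3, kreg-1, numr-2 and hizr-1, were named after their values were seen. The counting step was tested on simulated data.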

Additional observations from a re-analysis of the deposited data

How the results depend on the processing

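Taking the brightest probe set per gene, a further quantile normalization and centring on the gene median left each member count within 1.5 times its value and each of the 21 member differences within the spread of probe sets of 1 gene. Without probe sets that share probes, mtl-2 and cdr-4 have no value, the members at least 2-fold lower were 1 with GO and 1 with rGO, and the GO minus rGO median was 0.081, against 0.36 as reported. Without a floor on dim genes it was 0.088, and with the floor at the 75th percentile 0.075. At a log2 difference of at least 2, 1 member was lower with GO and 1 with rGO. At 0.5, 4 were lower with GO and 5 with rGO, and 1 was higher with GO than with rGO. These follow from the number of genes or the size asked for. Shifts by control probe sets were chosen after seeing the data. They were taken as each exposed array's median difference from the control array, also for GO against rGO. They move all genes alike, so the members keep their place relative to the median gene. With the poly-A shift, 2 members were higher and 0 lower with GO (median 0.76), 1 was lower with rGO (median 0.11), and 2 were higher for GO against rGO (median 0.93), and cdr-2 reversed to 0.24 with GO. With the hybridisation shift, 1 was lower with GO (median -0.17) and 1 with rGO (median 0.059), and the GO minus rGO median was 0.042. Under both shifts mtl-1 stayed above 3 and cdr-4 below 0 against the control. The cause of the control differences was not tested. No paired analysis was possible because each condition has 1 array. Values below 6.24, as for cdr-3, carry no difference.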

Other observations

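Of 3 protein-coding genes on each side of the cdr run, all 6 were measured and 2, K01D12.9 and C54D10.3, reached 6.79 in each comparison with the control. The other 4 were too dim to be read. K01D12.9, separated from cdr-4 by K01D12.10, had 9.92 with GO and 7.12 with rGO, against 7.92 in the control. It was thus higher with GO (2.00), at -0.81 with rGO, and 2.80 for GO minus rGO, a larger gap between the exposed arrays than for any measured cdr or metallothionein gene. C54D10.3, next to cdr-3, had 10.87 with GO and 12.04 with rGO, against 11.33 in the control. These neighbours were chosen after the member values had been seen, by their place alone.

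Among the other cadmium-inducible genes hsp-70 was the one that was at least 2-fold different between the exposed arrays, at -1.60 for GO minus rGO. Its GO value of 6.15 was just below background, so the size of that difference is not exact.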
